A study of Mus musculus and Homo sapiens with 15 samples.

Results

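Chemokines and their receptors were followed in p53-mutant mouse T-lymphomas, in a C57 mouse tumour model and in a human leukaemia line, with and without arsenic trioxide (ATO). Members were chosen by gene symbol alone: every gene named as a CC or CXC chemokine (Ccl, Cxcl) or a CC or CXC receptor (Ccr, Cxcr) with a number, together with Xcl1, Xcr1, Cx3cl1, Cx3cr1 and the atypical receptors Ackr1 to Ackr4. In the table of W/W mice this gave 61 of 52340 genes, namely 39 ligands, 18 receptors and 4 atypical receptors. Among the C57 genes 61 of 56691 were members, and among the human genes 63 of 61806, with 40 ligands, 18 receptors, 4 atypical receptors and the receptor pseudogene CCR12P, whose symbol fits the rule.

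Chemokines are small secreted proteins that direct the migration of leukocytes through G protein-coupled receptors on the cell surface. Homeostatic chemokines such as Ccl25, Cxcl12, Ccl19 and Ccl21a guide developing T cells into and through the thymus, where stromal and epithelial cells make the ligands and thymocytes carry the receptors Ccr9, Cxcr4 and Ccr7. Inflammatory chemokines are induced by cytokines: interferon-gamma induces Cxcl9, Cxcl10 and Cxcl11, and tumour necrosis factor and interleukin-1 induce Cxcl1 and Cxcl2, which attract neutrophils. Atypical receptors bind chemokines without the usual G protein signal and remove them.

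W/W mice are homozygous for the p53 mutation R282W and develop T-lymphoma, and tumour tissue taken from the thymus at day 150 after birth was sequenced from 3 water-treated mice, from 3 mice on ATO with tumours in progression and from 3 on ATO with tumours in regression. All 9 W/W libraries carry the mutation, no thymus of another genotype was analysed here, and the ATO groups were told apart by tumour outcome rather than by treatment. The C57 comparison used tumours, labelled as a CDX model in mice of genotype WT, from 2 PBS and 2 ATO libraries. The labels used here name neither the grafted cells nor the ATO dose. U937, a human monocytic leukaemia line expressing p53 R282W, gave 1 PBS and 1 ATO library. Each replicate is taken as a separate mouse or tumour only as far as its label goes, so p-values measure the spread between these samples.

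Total counts ranged from 12800367 to 17872972 per library, and levels are given as CPM, the usual per-total scaling of counts, on library sizes adjusted by trimmed mean of M-values (TMM), except in U937, where plain totals were used. Water replicate 2 and progressing replicate 2 had the lowest TMM factors of the W/W libraries, 0.747 and 0.794, against 1.03 to 1.16 in the other 7. T-cell markers were detected in full in the mouse libraries, with a summed level of 1512 to 2422 CPM under water, 2729 to 3941 in progressing and 3524 to 5769 in regressing tissue. Because each mouse library is bulk tissue, fewer cells of a type and less RNA per cell cannot be told apart for any gene below.

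Low counts limited which members could be tested. In W/W tissue 54 of the 61 members passed the filter on low counts (33 ligands, 17 receptors and all 4 atypical receptors), and Ccl1, Cxcl15, Cxcr1, Ccl26, Ccl21b, Ccl21d and Ccl27b did not. Ccl21b, Ccl21d and Ccl26 had 0 counts in all 9 libraries. The transcript of Ccl21a is 99.5% identical to that of Ccl21b over 402 aligned bases, and that of Ccl19 is 98.8% identical to Gm2564 over 685, so reads of such copies cannot be told apart and the values of Ccl19 and Ccl21a are uncertain in that respect. Without a stated use of strand, reads of overlapping genes cannot be told apart either. Xcl1 shares 18.7% of its exonic bases with Gm20743, Cxcl10 5.91% with Art3 and Cx3cr1 1.73% with Gm33858, each on the other strand.

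Receptor and ligand profiles were compared within libraries as CPM per kilobase of exon, the only scale used here to rank one gene against another. Cxcr4, the receptor for Cxcl12, ranked first among receptors by group mean in the W/W, C57 and U937 groups alike, at 97.9 CPM per kb under water, 127 in progressing and 169.7 in regressing tissue. Its share of the summed receptor level differed more than its level did. Cxcr4 made up 94.2%, 89.8% and 82.7% of that sum in the 3 progressing libraries, 60.9%, 65.0% and 51.6% in the regressing libraries, and 15.7%, 55.0% and 13.3% under water. In the 4 C57 tumours its share was 92.7% to 94.25%. The progressing libraries held 8 or 9 receptors at 1 CPM or more, against 16 in each water and each regressing library.

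Ligand profiles differed in their leading genes. Under water the ligand with the highest mean per kilobase was Ccl21a at 323 CPM per kb, with single libraries between 6.23 and 539, followed by Ccl8 at 156 and Ccl11 at 46.9. In progressing tissue Ccl8, Ccl6 and Ccl9, which attract monocytes and other myeloid cells, led at 79.6, 39.0 and 13.4 CPM per kb. Regressing tissue was led by Ccl25 at 46.4 CPM per kb with libraries between 43.7 and 48.1, by Ccl11 at 35.9 and by Cxcl12 at 32.9. Neighbouring ranks overlapped between libraries in most cases: Ccl11 in regressing tissue ranged from 12.9 to 65.5 CPM per kb, across the whole range of Ccl25 and Cxcl12.

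**Figure D1:**
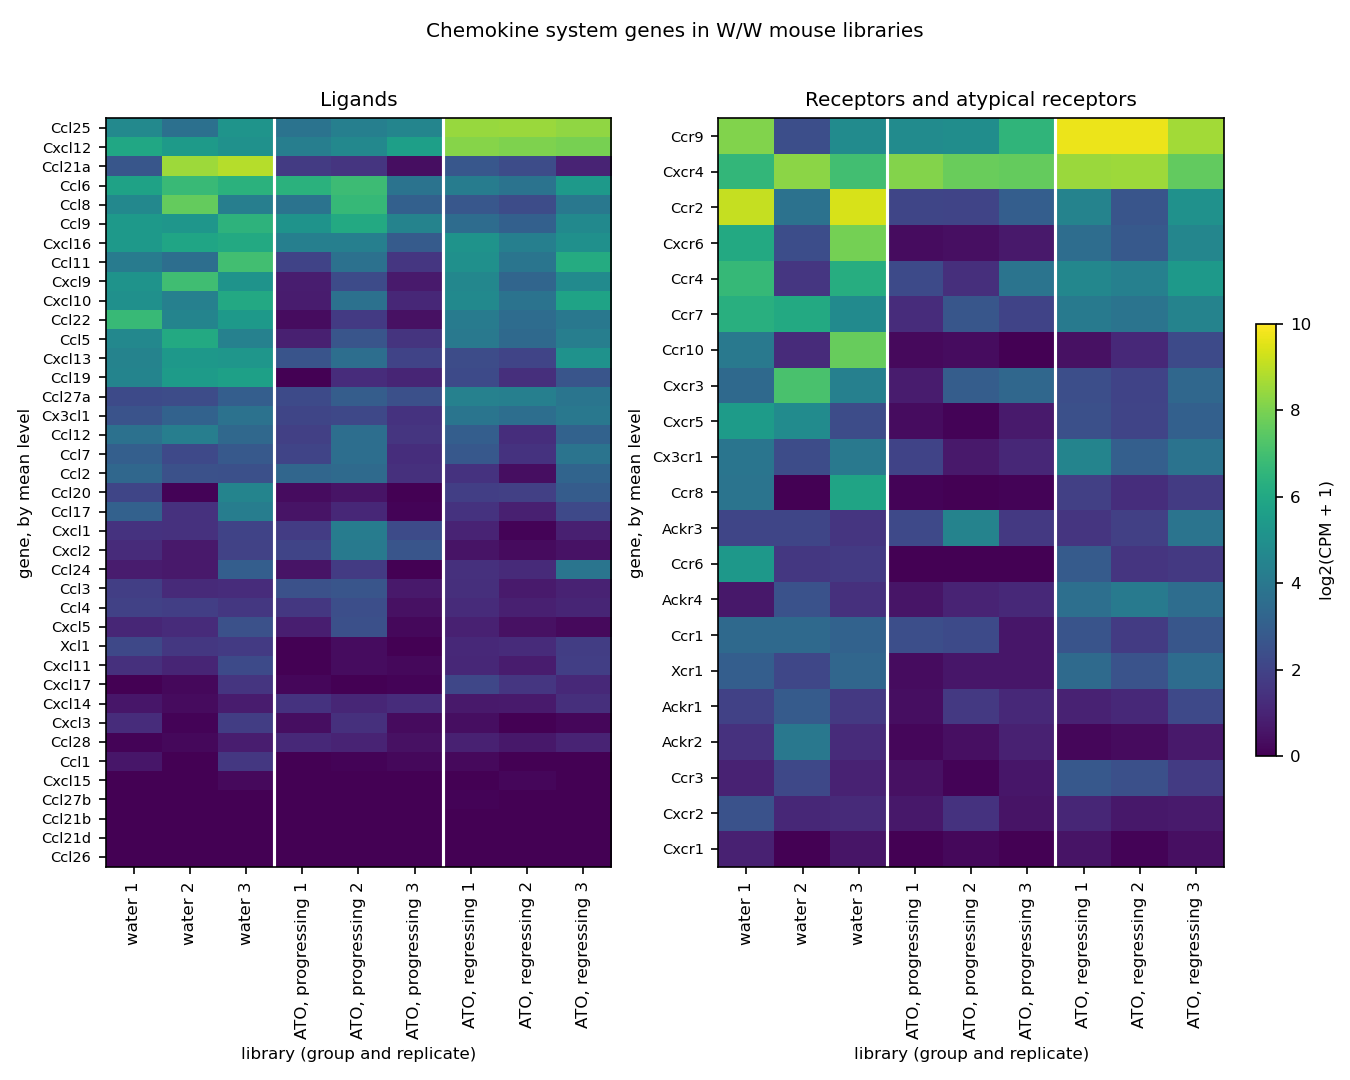
Levels of ligands and receptors in the 9 W/W libraries as log2(CPM + 1), with 1 column per library, 1 row per gene, ligands on the left and receptors with atypical receptors on the right, sorted by mean level. Ccl25 and Cxcl12 are bright in the 3 regressing libraries, and in the 3 progressing libraries most receptors other than Cxcr4 and Ccr9 are dark.

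Water-treated lymphomas differed widely from one another in their receptors. Ccr2, the receptor for the monocyte-attracting chemokine Ccl2, was at 557, 12.8 and 664 CPM in water replicates 1, 2 and 3. Cxcr6, the receptor for Cxcl16, was at 66.9, 4.12 and 239.6 CPM and Ccr4, the receptor for Ccl17 and Ccl22, at 102, 1.99 and 73.4 CPM. All 3 receptors were lowest in replicate 2. Cxcr3, the receptor for Cxcl9 to Cxcl11, was highest in that replicate, with 9.67, 138 and 19.5 CPM. In replicate 2 the summed B-cell markers reached 3623 CPM and the summed natural killer and cytotoxic markers 1253 CPM, the highest of the 3 water libraries, and the part of those cells in the receptor levels was not tested.

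Regressing tissue was compared with water-treated lymphoma to ask which members differed in tumours in regression under ATO. Ccl25, Cxcl12 and Ccl27a rose, and Ccl21a, Ccl19 and Ccr2 fell. Of the 54 tested members 3 were higher, against 3.13% of all tested genes, and 3 were lower, against 4.57% (edgeR quasi-likelihood test, Benjamini-Hochberg adjusted p under 0.05), both shares little above the background. At an unadjusted p under 0.05, edgeR gave 5 members higher and 18 lower, against 2099 higher and 2975 lower of all 18119 tested genes. DESeq2 called 4 higher and 10 lower, with 7 receptors among the lower in place of 1 in edgeR. No share over all genes is given here for DESeq2. All 3 risers in edgeR were ligands. Fold changes are printed with the standard error of the fit. The median log2 fold change was -1.08 over the 33 ligands and -1.74 over the 17 receptors, beside -0.11 over all genes tested.

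Ccl25, at chr8:4325210-4360020 (GRCm38), is the ligand of Ccr9 and is made in the thymus mainly by epithelial cells. Its level was 25.1, 11.8 and 35.3 CPM in the water libraries and 354, 358 and 325 CPM in the regressing ones. The lowest regressing library was thus far above the highest water library, and the means were 24.1 ± 11.7 and 346 ± 17.8 CPM (SD, n = 3 each). The edgeR fit gave log2 fold change 3.84 ± 0.42, adjusted p = 0.00267, and the call was kept in 6 of 6 fits that left out 1 library of either group. Elavl1, which shares 204 exonic bases (2.74%) of Ccl25 on the other strand, had a log2 fold change of -0.05 (adjusted p = 0.909 in edgeR).

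Cxcl12, the ligand of Cxcr4 and Ackr3 and a retention signal in thymus and marrow, was at 60.7, 43.2 and 32.7 CPM under water and 291, 268 and 249 CPM in regression. The groups did not overlap (edgeR log2 fold change 2.56 ± 0.40, adjusted p = 0.0103). Without regressing replicate 1 or 2 it no longer passed (adjusted p up to 0.0561). Ccl27a, better known from skin, went from 3.80, 4.05 and 7.04 to 20.2, 19.1 and 13.8 CPM (edgeR log2 fold change 1.83 ± 0.49, adjusted p = 0.0476). The Ccl27a call passed in 0 of 6 fits with 1 library left out, with adjusted p from 0.0512 to 0.189, and Gm13306 is a copy of Ccl27a with 95.7% identity.

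The receptors of these ligands did not pass the test in this comparison. Ccr9, which marks double-positive thymocytes, had 275, 4.28 and 27 CPM under water and 835, 831 and 385 CPM in regression. AC165425.1 shares 18.8% of the exonic bases of Ccr9 on the other strand and Gm17200 2.62% on the same strand, so the level of Ccr9 is uncertain in that respect. The groups did not overlap, but water replicate 1 was far above the other water libraries, and the edgeR adjusted p was 0.145 for a log2 fold change of 2.74 ± 1.13. Cxcr4 was at 96.5, 308 and 126 CPM under water and 360.4, 366 and 193 CPM in regression, with overlapping groups (edgeR adjusted p = 0.272), and Ackr3 had adjusted p = 0.486. No receptor was called higher by edgeR, where 1 had an unadjusted p under 0.05 with a positive fold change, or by DESeq2, which gave no adjusted p for Ccr9.

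The 3 members that fell had high and uneven levels under water. Ccl21a, a ligand of Ccr7 that draws T cells and dendritic cells into lymphoid tissue, had 5.42, 370.3 and 469 CPM under water and 5.51, 3.95 and 0.989 CPM in regression. Water replicate 1 lay below the highest regressing library, so the groups overlapped despite a log2 fold change of -6.33 ± 1.38 (edgeR adjusted p = 0.0253). Ccl19, the other Ccr7 ligand, had 21.6, 44.1 and 50.9 against 3.71, 1.55 and 5.21 CPM without overlap (edgeR log2 fold change -3.47 ± 0.95, adjusted p = 0.0499). Ccr2 fell to 21.1, 5.22 and 32.4 CPM (edgeR log2 fold change -4.39 ± 1.14, adjusted p = 0.0437), with water replicate 2 inside the regressing range. Ccl19 passed in 0 of 6, Ccr2 in 1 of 6 and Ccl21a in 2 of 6 fits that left out 1 library. The whole count of 6 called members was 1, 1 and 3 without regressing replicate 1, 2 and 3, and 4 to 8 without a water library.

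Markers of thymic epithelium and of double-positive thymocytes, the most common cell of a normal thymus, moved with these members. Summed epithelial markers were 325 to 1448 CPM under water and 2832 to 3238 CPM in regression, with 5 of 14 called higher (Prss16, Tbata, Ctsl, Ly75, Psmb11) and none of the 14 at 0 in either group. Double-positive markers summed to 599.9 to 788 and 6551 to 12806 CPM, with 10 of 12 called higher. Fibroblast markers went the other way, at 413 to 1246 and 159 to 599 CPM with 3 of 10 lower (Col1a1, Col1a2, Col3a1), and adipocyte markers summed to 98.2 to 259 and 241 to 5946 CPM with 3 of 10 higher. The part of these cells in the levels of Ccl25, Cxcl12 and Ccr9 was not tested.

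Progressing tissue was compared with water in the same fit and 10 of 17 tested receptors and 9 of 33 tested ligands fell. Of all 54 tested members 19 were lower, against 7.13% of all genes, and 0 were higher, against 4.77%. At an unadjusted p under 0.05, edgeR gave 1 member higher and 29 lower, against 2244 higher and 2933 lower of all 18119 tested genes. DESeq2 called 1 higher and 25 lower, given here without its share over all genes. Among the receptors were Ccr2, Ccr6, Ccr7, Ccr8, Ccr10, Cx3cr1, Cxcr5, Cxcr6 and Xcr1, and the ligands were Ccl5, Ccl17, Ccl19, Ccl21a, Ccl22, Cxcl9, Cxcl11, Cxcl16 and Xcl1. The median log2 fold change was -3.34 over receptors and -1.37 over ligands, beside -0.04 over all genes, and setting Ccr6 at its bound left the receptor median at -3.34. Whether receptors and ligands differ was not tested. With 1 library left out in turn, 10 of the 19 kept their call in all 6 fits (Ccl19, Ccl21a, Ccl22, Cxcl9, Ccr2, Ccr6, Ccr7, Cxcr5, Cxcr6, Xcr1), and the other 9 lost it at least without progressing replicate 3.

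Ccr6, the receptor for Ccl20 on B cells and on some T cells, was counted 603, 27 and 36 times under water and 0 times in each progressing library. Taking 3 counts per library as the floor, it was at least 65.5-fold lower in progressing tissue, and at least 9.75-fold lower without water replicate 1. Ccl20 itself had 3.22, 0.0764 and 21.7 CPM under water and 0.247, 0.423 and 0 CPM in progression, with an edgeR adjusted p of 0.0591. Water replicate 1 held most Ccr6 counts and water replicate 3 most of Ccl20, so ligand and receptor were high in different tumours.

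Ccr7, which takes T cells and dendritic cells along Ccl19 and Ccl21a, fell from 77.4, 66.2 and 26.9 to 1.42, 5.33 and 3.01 CPM, a mean of 56.8 ± 26.5 against 3.25 ± 1.96 (SD, n = 3 each). Here the groups were far apart (edgeR log2 fold change -4.13 ± 0.59, adjusted p = 0.00342), and the call was kept in 6 of 6 fits with 1 library left out. Ccl19 (0, 1.44 and 1.03 CPM) and Ccl21a (2.34, 1.94 and 0.294 CPM) fell too, by 5.58 and 7.51 on the log2 scale (edgeR adjusted p = 0.0107 and 0.0114). Both ligands and their receptor were low in the same 3 libraries.

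Ccl22 and Ccl17, ligands of Ccr4 that dendritic cells and macrophages make, both fell. Ccl22 was at 106, 21.9 and 40.8 CPM under water and 0.247, 2.28 and 0.368 CPM in progression (edgeR log2 fold change -5.89 ± 0.93, adjusted p = 0.00516). Ccl17 was at 7.54, 1.68 and 17.8 CPM under water and 0.432, 1.18 and 0.0735 CPM in progression (edgeR log2 fold change -4.0 ± 1.11, adjusted p = 0.0415), but it passed no longer if water replicate 1 or 3 or progressing replicate 1 or 3 was dropped (adjusted p up to 0.121). Their receptor Ccr4 had 3.76, 1.52 and 13.5 CPM in progression, a log2 fold change of -3.23 ± 1.12 and an edgeR adjusted p of 0.0862, with water replicate 2 among the progressing values.

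Chemokines induced by interferon-gamma were low in progression as well. Cxcl9 went from 33.9, 121 and 34 to 0.740, 3.89 and 0.662 CPM (edgeR log2 fold change -5.17 ± 0.89, adjusted p = 0.00724). Cxcl10 had 31.3, 19.3 and 64.8 CPM under water and 0.678, 12.4 and 1.18 CPM in progression and missed the threshold (edgeR log2 fold change -3.02 ± 1.02, adjusted p = 0.0779), although no progressing library reached the lowest water library. Cxcl11 was at 1.61, 1.07 and 3.70 CPM under water and 0, 0.254 and 0.147 CPM in progression (edgeR log2 fold change -3.98 ± 1.07, adjusted p = 0.0374), and 1582 of its exonic bases (41.7%) are shared with Gm2673 on the other strand. Cxcr3, their shared receptor on activated T cells and natural killer cells, had a log2 fold change of -3.34 ± 1.10 (edgeR adjusted p = 0.0724). Ccl5, a ligand of Ccr1 that T cells and natural killer cells release, fell from 24.2, 66 and 19.9 to 0.863, 5.16 and 1.84 CPM (edgeR log2 fold change -3.81 ± 0.74, adjusted p = 0.0113). Ccl5 lost the call without progressing replicate 3, with an adjusted p of 0.051 in edgeR. Ccr1 (adjusted p = 0.167), Ccl3 (adjusted p = 0.465) and Ccl4 (adjusted p = 0.912 in edgeR) were not called.

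Interferon-gamma itself (Ifng) was counted 11, 40 and 26 times under water, 0 times in each progressing library and 10, 1 and 12 in the regressing ones. Ltb, a lymphotoxin subunit that drives Ccl19, Ccl21a and Cxcl13 in lymphoid stroma, was at 276, 183 and 285 CPM under water and 2.10, 11.1 and 4.48 CPM in progression (edgeR log2 fold change -5.40 ± 0.59, adjusted p = 0.00134). Of 12 listed cytokines that induce chemokines, 10 were tested and 3 fell in progression (Ltb, Ifng, Csf2). The part of these cytokines in the chemokine levels was not tested.

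Cxcr6 and its membrane-bound ligand Cxcl16 were both lower. Cxcr6 had 66.9, 4.12 and 239.6 CPM under water and 0.247, 0.338 and 0.588 CPM in progression (edgeR log2 fold change -8.03 ± 1.37, adjusted p = 0.00693), and Cxcl16 had 40.5, 57.8 and 66.9 CPM under water and 19.1, 18.9 and 6.32 CPM in progression (edgeR log2 fold change -1.90 ± 0.47, adjusted p = 0.0268). Zmynd15 shares 18.3% of the exonic bases of Cxcl16 on the other strand and fell by 3.33 on the log2 scale (edgeR adjusted p = 0.0126), and how far its reads enter Cxcl16 was not tested. Xcr1, which marks cross-presenting dendritic cells, fell from 7.03, 3.36 and 8.95 to 0.247, 0.507 and 0.515 CPM (edgeR log2 fold change -3.92 ± 0.68, adjusted p = 0.00745). Its ligand Xcl1 had 54, 27 and 36 counts under water and 0, 3 and 0 in progression, a pooled ratio of 36.3-fold lower with a 95% counting interval of 12.1 to 178, and 22.1-fold lower without progressing replicate 1 (edgeR adjusted p = 0.0211). Ccr8, found on regulatory and skin-homing T cells, had 207, 0 and 917 counts against 1, 0 and 1, and Ccr10, a receptor of skin-homing cells, had 237, 18 and 3299 against 3, 3 and 0 (edgeR adjusted p = 0.0209 and 0.0164). The pooled Ccr8 ratio was 522-fold lower with a counting interval of 144 to 4319.7, and 151-fold lower (41.2 to 1253) without water replicate 3. Water replicate 2, with 0 counts of Ccr8, overlapped the progressing libraries. The counting intervals of Xcl1 and Ccr8 pool the reads of a group and leave out the spread between its libraries.

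Ccr2 was at 3.27, 3.13 and 6.84 CPM in progression (edgeR log2 fold change -6.54 ± 1.27, adjusted p = 0.0113), while its ligands Ccl2, Ccl7 and Ccl12 were not called, with log2 fold changes of 0.18, -0.06 and -1.37. Cxcr5, the B-follicle receptor, fell from 44.2, 27 and 4.01 to 0.247, 0.0845 and 0.662 CPM (edgeR log2 fold change -6.20 ± 1.04, adjusted p = 0.00648). Bcl9l, with 3.30% of the exonic bases of Cxcr5 on the other strand, fell by 1.51 on the log2 scale (edgeR adjusted p = 0.0337). Cxcl13, the ligand of Cxcr5, was at 21.2, 39.6 and 37.3 CPM under water and 4.99, 11.1 and 3.09 CPM in progression without overlap but missed the threshold (edgeR adjusted p = 0.105). Cx3cr1, a receptor of monocytes and macrophages, fell from 14, 4.05 and 15.6 to 3.08, 0.592 and 1.18 CPM (edgeR log2 fold change -2.77 ± 0.78, adjusted p = 0.0426), and its ligand Cx3cl1 had adjusted p = 0.0748.

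Ccl25, Cxcl12 and their receptors were not called in progression. Cxcr4 was at 282, 209.7 and 199 CPM against 96.5, 308 and 126 under water (edgeR log2 fold change 0.38 ± 0.45, adjusted p = 0.625), and water replicate 2 lay above all 3 progressing libraries. Ccl25 had 13, 18.8 and 22.1 CPM, Cxcl12 18.4, 24.1 and 48.4 CPM and Ccr9 27.5, 29 and 91.4 CPM, each overlapping the water range (edgeR adjusted p = 0.51, 0.344 and 0.565). Ackr3 was 3.58, 21.5 and 2.13 CPM, high in replicate 2 alone.

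**Figure D2:**
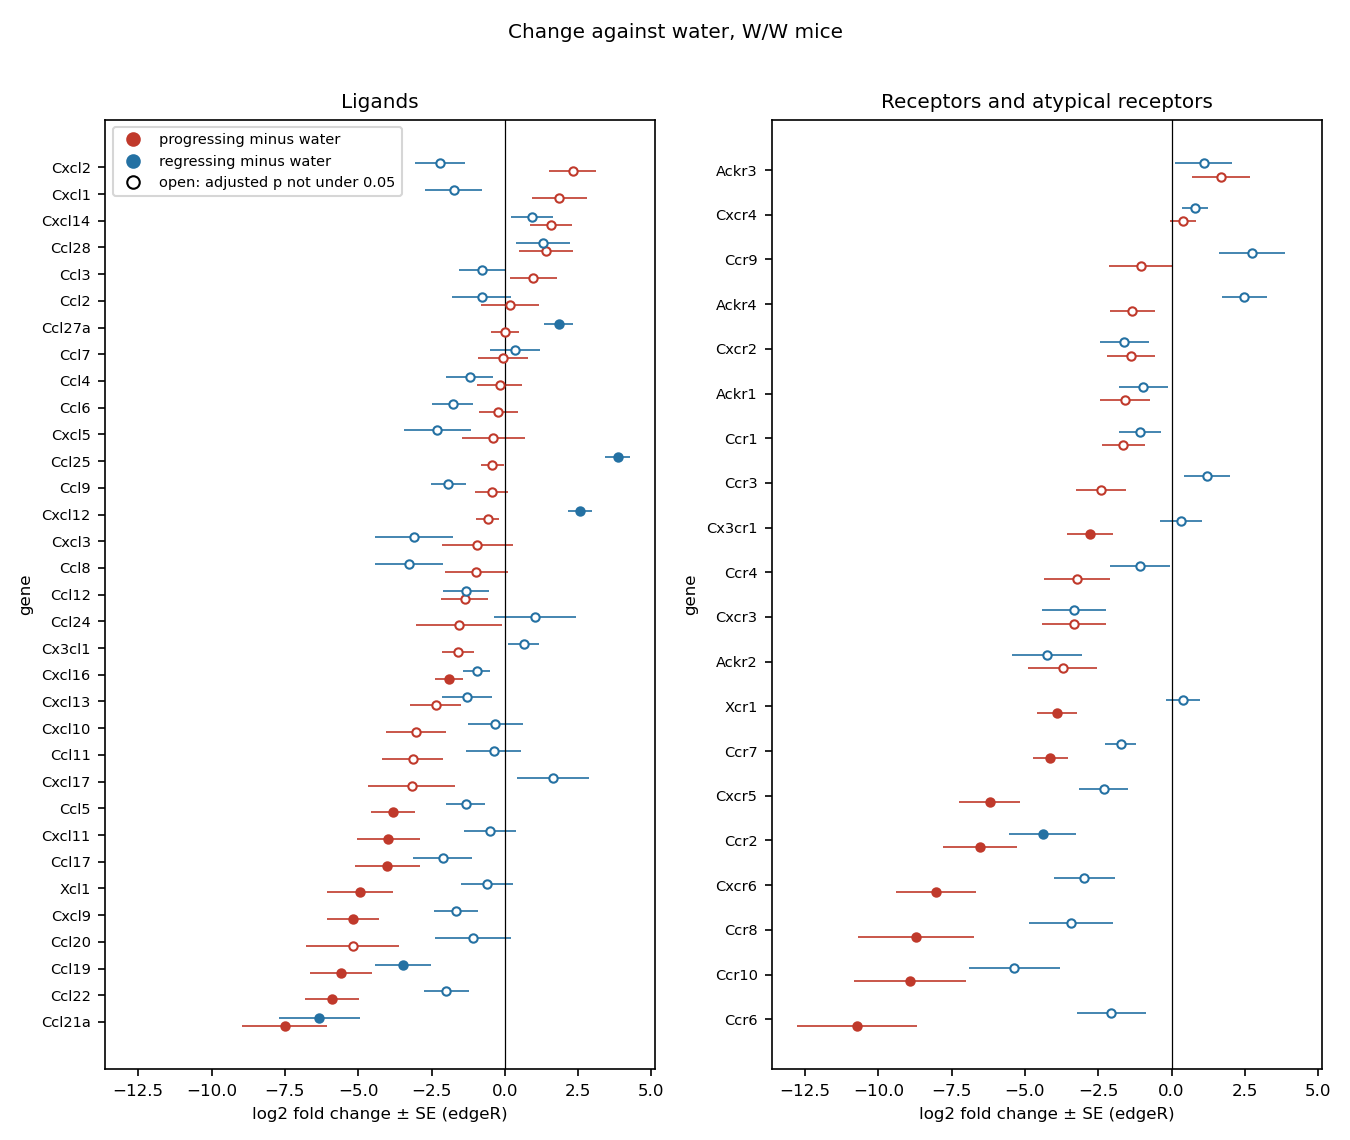
Log2 fold change against water with its standard error from edgeR, for progressing (red) and regressing (blue) tissue, over tested ligands (left) and receptors (right), with filled points for adjusted p under 0.05; both series share the 3 water libraries, and the fitted value of Ccr6 in progression rests on 0 counts. Ccl25, Cxcl12 and Ccl27a are the filled points to the right of 0, and the filled red points lie to the left.

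Several cell types' markers fell with these members in progression. B-cell markers summed to 299.6 to 3623 CPM under water and 9.19 to 43.1 CPM in progression, with 9 of 10 called lower. Natural killer and cytotoxic markers summed to 87.7 to 1253 and 24.2 to 144 CPM, with 7 of 9 tested called lower and Ncr1 at 0. Dendritic-cell markers summed to 102 to 209 and 14.1 to 40.4 CPM, with 4 of 9 called lower (Zbtb46, Fscn1, Itgax, Flt3), and thymic epithelial markers had 7 of 14 called lower (Aire, Foxn1, Prss16, Tbata, Krt18, Krt8, Krt5). Macrophage markers had 1 of 12 called lower (Csf1r), and their sums, 1774 to 2625 CPM under water and 324 to 1494 CPM in progression, did not overlap. Double-positive thymocyte markers, in contrast, had 6 of 12 called higher. The share of mitochondrial counts also separated these groups, at 2.55%, 3.79% and 2.75% under water and 4.70%, 8.83% and 4.86% in progression. The part of these cells, or of that share, in the fall of their chemokines and receptors was not tested. Without water replicate 2 and progressing replicate 2 together, a setting chosen after the data were seen, 22 members were lower, and the count with progressing replicate 3 left out was 10.

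Regressing and progressing tissue, both from ATO-treated mice, were compared to ask which members separated the outcomes. Of the 54 tested members 16 were higher in regression, against 6.45% of all genes, and 2 were lower, against 6.18%. The 16 were Ccl5, Ccl22, Ccl25, Ccl27a, Cx3cl1, Cxcl9, Cxcl12 and Xcl1 among ligands, Ccr3, Ccr6, Ccr7, Cx3cr1, Cxcr5, Cxcr6 and Xcr1 among receptors, and Ackr4. The median log2 fold change was 1.18 over ligands and 3.10 over receptors, beside -0.07 over all genes. The call count depended on single libraries: it was 3, 3 and 4 without regressing replicate 1, 2 and 3, 11 without progressing replicate 1 and 4 without progressing replicate 3. Ccl25, Cxcl12 and Xcr1 were called in each of the 6 fits with 1 library left out.

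Markers of several cell types moved with these members. Thymic epithelial markers, with 9 of 14 called higher, summed to 214 to 577 CPM in progression and 2832 to 3238 CPM in regression. Natural killer and cytotoxic markers had 5 of 9 tested called higher, at 24.2 to 144 and 86.3 to 109 CPM, with Ncr1 at 0 in progression. Dendritic-cell markers had 4 of 9 higher (Zbtb46, Cd209a, Flt3, Clec9a), at 14.1 to 40.4 and 61.3 to 134 CPM, and B-cell markers 3 of 10, at 9.19 to 43.1 and 151 to 230.5 CPM. Fibroblast markers had 4 of 10 lower in regression (Col1a1, Col1a2, Col3a1, Fbln1), at 886 to 1752 CPM in progression and 159 to 599 CPM in regression. Mitochondrial counts made up 2.08%, 2.96% and 8.48% of the regressing libraries, so replicate 3 lay within the progressing range. The part of these cells in the difference between outcomes was not tested.

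Ccl25 in regression exceeded progression 19.2-fold in the means (edgeR log2 fold change 4.27 ± 0.43, adjusted p = 0.00298) and Cxcl12 8.88-fold (edgeR log2 fold change 3.15 ± 0.41, adjusted p = 0.00733). Ccr9 in regression lay above progression without overlap but stayed just outside the threshold (edgeR log2 fold change 3.79 ± 1.19, adjusted p = 0.0594). Ackr4, which removes Ccl19, Ccl21a and Ccl25, was at 11.6, 16.4 and 11 CPM in regression and 0.493, 1.01 and 1.25 CPM in progression (edgeR log2 fold change 3.82 ± 0.82, adjusted p = 0.0201). Water libraries had 0.580, 4.81 and 1.61 CPM of it, below each regressing library (edgeR adjusted p = 0.0696). Acad11 shares 8.90% of Ackr4's exonic bases on the other strand and had a log2 fold change of 0.15 (edgeR adjusted p = 0.871).

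Ccr6, Ccr7, Cxcr5 and Cxcr6 had means in regression between those of progression and water. Xcr1, which had 9.90, 4.94 and 10.6 CPM in regression (edgeR log2 fold change 4.31 ± 0.69, adjusted p = 0.0101), overlapped its water range (edgeR adjusted p = 0.695). Ccr7 had 16.6, 13.3 and 21.1 CPM, 5.23-fold above progression (edgeR adjusted p = 0.0252), and below each water library (edgeR adjusted p = 0.0687 against water). Cxcr5 had 4.45, 3.18 and 7.45 CPM and Cxcr6 10.8, 5.93 and 22.9 CPM (edgeR adjusted p = 0.0299 and 0.0292 against progression). Ccr6 had 102, 27 and 33 counts against 0, at least 15.8-fold higher, or 9.29-fold without regressing replicate 1 (edgeR adjusted p = 0.0315). Cx3cr1 had 21.8, 7.06 and 13.2 CPM and Ccr3, an eosinophil receptor, 5.69, 4.38 and 2.31 CPM against 0.370, 0.0845 and 0.515 in progression (edgeR adjusted p = 0.0329 and 0.0288). Of these receptors Xcr1 alone kept its call in all 6 fits with a library left out; Ccr7 passed in 2 of 6, Cx3cr1 in 1 of 6 and Ccr3, Ccr6, Cxcr5 and Cxcr6 in 0 of 6.

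Among the other ligands Cxcl9 had 23.8, 8.61 and 26.7 CPM in regression, above each progressing library (edgeR log2 fold change 3.50 ± 0.83, adjusted p = 0.027). Cxcl10 and Cxcl11 were separated in the same direction without passing (edgeR adjusted p = 0.0965 and 0.055). Ccl22 had 16.7, 10.4 and 15 CPM (edgeR adjusted p = 0.022) and Ccl5 15.7, 9.67 and 18.3 CPM (edgeR adjusted p = 0.0444). Cx3cl1, a membrane-bound ligand, was at 13.9, 11.1 and 14.8 against 3.21, 3.47 and 1.76 CPM (edgeR log2 fold change 2.23 ± 0.54, adjusted p = 0.0282), and Xcl1 had 20, 19 and 38 counts against 0, 3 and 0 (edgeR adjusted p = 0.0342). Ccl21a in regression overlapped its progressing range (edgeR log2 fold change 1.18 ± 1.20, adjusted p = 0.524).

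The neutrophil attractants Cxcl1 and Cxcl2 were the exception, with more transcript in progression than in regression. Neither was called in progression against water or in regression against water. Cxcl1 had 1.74, 1.68 and 3.09 CPM under water, 2.40, 17.5 and 3.82 in progression and 0.990, 0.0706 and 0.857 in regression, and regression was lower than progression (edgeR log2 fold change -3.60 ± 1.02, adjusted p = 0.0441). Cxcl2 had 1.35, 0.611 and 2.96 CPM under water, 3.14, 16.3 and 5.22 in progression and 0.433, 0.212 and 0.396 in regression (edgeR log2 fold change -4.53 ± 0.92, adjusted p = 0.0189). Progressing replicate 2 was highest for both. The Cxcl1 call passed only without progressing replicate 1 among the 6 fits with a library left out (adjusted p = 0.149 without progressing replicate 2), and the Cxcl2 call was lost without each regressing replicate (adjusted p up to 0.0782). Their receptor Cxcr2 had at most 4.77 CPM in any W/W library (edgeR adjusted p = 0.875), and Cxcl5 had adjusted p = 0.273. Summed neutrophil markers, at 3.53 to 78 CPM in progression and 14.2 to 54 CPM in regression, overlapped between these groups. The 78 CPM came from progressing replicate 2, against 13.9 and 3.53 CPM in progressing replicates 1 and 3. The part of neutrophils in the levels of Cxcl1 and Cxcl2 was not tested.

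The other tested members were called in no W/W comparison. Ccl11, an eosinophil attractant of stromal cells, had 16.9, 11.3 and 124 CPM under water, 3.08, 12.3 and 1.98 in progression and 31.7, 13.9 and 70.8 in regression, and its lowest adjusted p was 0.0743 (edgeR, progression against water). Ccl6 had 52.8, 109.7 and 82.9 CPM under water, 81.7, 115 and 13 in progression and 17.4, 13.1 and 40.9 in regression, and Ccl9 41.2, 37.6 and 88.1, then 34.3, 66.5 and 21.4, then 10.6, 7.41 and 26 CPM. Ccl6 and Ccl9 were thus highest outside regression, with an adjusted p of 0.0687 for Ccl9 against water (edgeR). Cxcl17, a mucosal chemokine, had 3.34, 1.98 and 1.25 CPM in regression and 0.123, 0 and 0.0735 in progression (edgeR adjusted p = 0.0592). Of the atypical receptors Ackr2, a scavenger of inflammatory CC chemokines, had 1.68, 14.9 and 1.36 CPM under water, high in replicate 2, and at most 0.882 CPM in the ATO libraries (edgeR adjusted p = 0.0553 in regression and 0.0622 in progression). Ackr1, the chemokine receptor of erythroid and endothelial cells, had adjusted p = 0.48 and 0.254 in edgeR and shares 25.7% of its exonic bases with Cadm3. Ccl24, Ccl28, Cxcl3 and Cxcl14 had adjusted p values of 0.256, 0.943, 0.286 and 0.564 between the ATO outcomes.

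**Figure D3:**
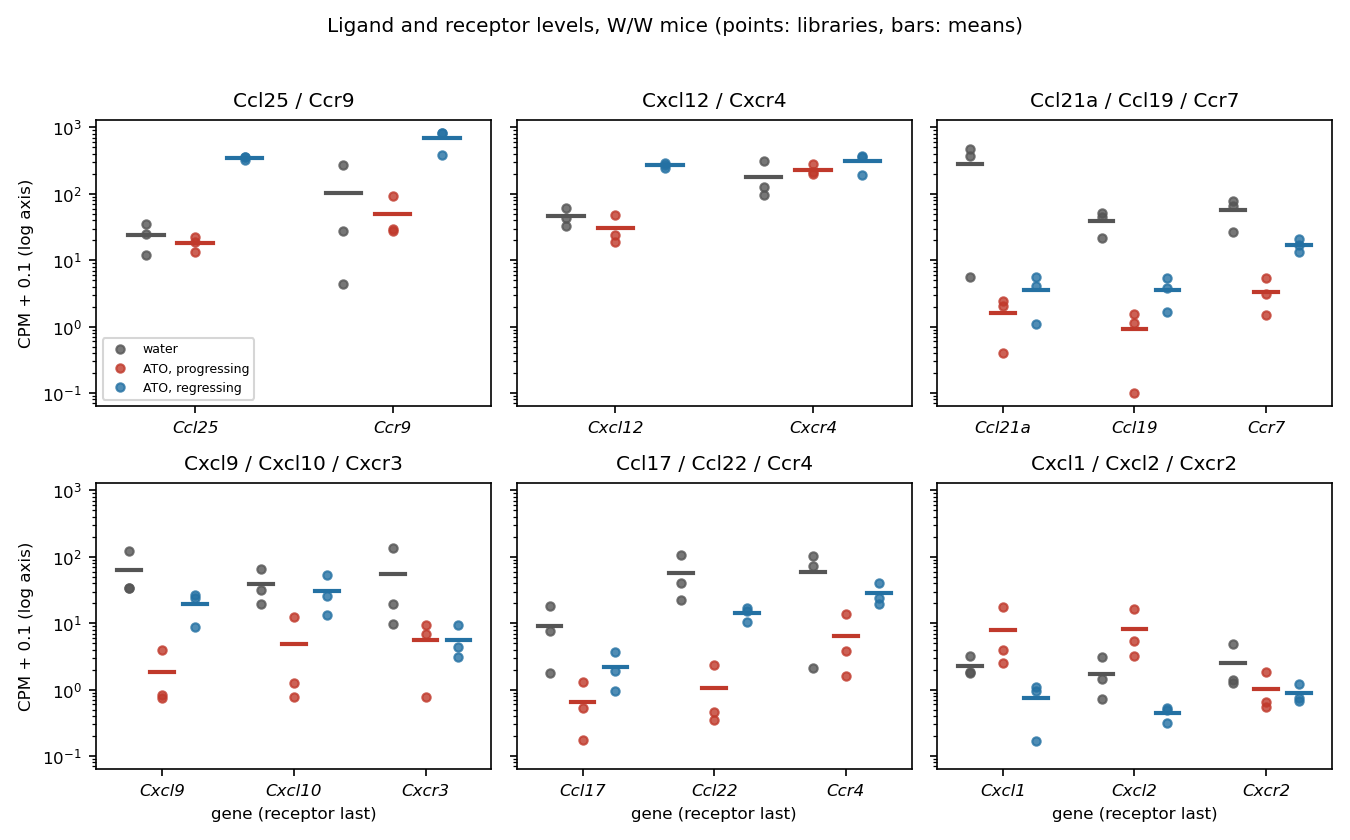
CPM plus 0.1 on a log axis for 6 ligand and receptor sets in W/W libraries, with 1 point per library, a bar at the group mean, and grey for water, red for progressing and blue for regressing. By group mean, Ccl25 and Cxcl12 are highest in regression, Ccl19, Ccl21a and Ccr7 are highest under water, and Cxcl1 and Cxcl2 are highest in progression.

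Promoter sequences of 46 of the 61 members were found in a RefSeq-derived table (build GRCm38.p6), and the 250 bases before each start were searched on both strands for a kappa B-like motif, GGANNTTCC, and an interferon response-like motif, GAAANNGAA. The kappa B-like letters occurred in 6 of 28 ligand promoters (21.4%) and 1 of 18 promoters of receptors and atypical receptors (5.56%), against 3.56% of all 27025 promoters. The interferon response-like letters occurred in 6 of 28 ligand promoters (21.4%) and 2 of the 18 others (11.1%), against 7.16% of all. A match is a string of letters, not a bound site. The promoters of the 2 ligands higher in progression than in regression and of 2 interferon-induced neighbours are shown for their matches. They run 5′ to 3′ on the gene's strand with matches in capitals. In Cxcl1 (chr5:90890995-90891244, plus strand), Cxcl2 (chr5:90903649-90903898, plus strand) and Cxcl10 (chr5:92348890-92349139, minus strand) the kappa B-like letters match on both strands at the same position, and Cxcl10 and Cxcl9 (chr5:92328080-92328329, minus strand) each hold 1 interferon response-like match.
Cxcl1: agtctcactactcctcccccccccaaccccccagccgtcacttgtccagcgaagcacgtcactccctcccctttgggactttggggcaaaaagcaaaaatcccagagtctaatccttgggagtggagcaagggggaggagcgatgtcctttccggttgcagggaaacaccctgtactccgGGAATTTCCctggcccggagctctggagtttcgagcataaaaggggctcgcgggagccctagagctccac
Cxcl2: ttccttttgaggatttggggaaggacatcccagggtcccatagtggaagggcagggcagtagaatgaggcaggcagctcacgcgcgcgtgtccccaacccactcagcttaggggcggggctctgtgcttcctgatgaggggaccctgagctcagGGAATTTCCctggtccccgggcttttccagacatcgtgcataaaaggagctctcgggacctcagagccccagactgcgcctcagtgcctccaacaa
Cxcl10: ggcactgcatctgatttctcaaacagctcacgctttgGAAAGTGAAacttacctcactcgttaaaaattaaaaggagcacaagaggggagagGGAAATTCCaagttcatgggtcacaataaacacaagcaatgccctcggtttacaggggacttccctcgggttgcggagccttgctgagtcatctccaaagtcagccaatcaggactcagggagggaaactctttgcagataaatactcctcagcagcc
Cxcl9: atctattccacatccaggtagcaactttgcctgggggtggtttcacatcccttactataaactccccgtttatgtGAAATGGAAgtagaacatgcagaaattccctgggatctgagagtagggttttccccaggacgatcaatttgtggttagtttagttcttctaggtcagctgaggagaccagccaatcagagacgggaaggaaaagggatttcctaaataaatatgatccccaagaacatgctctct
Cxcl1 and Cxcl2 share the same 9 capital letters. Promoters of Ccl25 and Cxcl12 held neither string.

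Many members sit in clusters, defined here as neighbours less than 250000 bases apart (GRCm38). In progression against water, Cxcl9 and Cxcl11 of the cluster at chr5:92321347-92365485 were called lower and Cxcl10 between them was not. In that comparison Ccl22 and Ccl17 at chr8:94745590-94812036 were lower, and Cx3cl1 between them missed the threshold. Regression against progression differed: Cxcl9 alone was called higher in the chr5 cluster, and Ccl22 and Cx3cl1 but not Ccl17 in the chr8 cluster. Regression against water gave no call in either cluster. In the CC ligand cluster at chr11:82035571-82305690 (Ccl2, Ccl7, Ccl11, Ccl12, Ccl8, Ccl1) the lowest adjusted p of the W/W comparisons was 0.0743, for Ccl11 in progression against water (edgeR). At chr4:42655251-42773993 both tested members, Ccl19 and Ccl21a, were called lower against water in regression and in progression alike.

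Genes that carry the chemokine signal or act beside it in trafficking were counted from lists of 42 signalling, 29 adhesion and egress and 23 other chemoattractant genes. In progression against water 10 of 27 tested adhesion and egress genes were called, all of them lower, with a median log2 fold change of -1.25 beside -0.04 over all genes, and 6 of 42 signalling genes were lower and 1 higher (edgeR). Over all genes 7.13% were lower and 4.77% higher. S1pr4, a sphingosine phosphate receptor, fell by 4.94 on the log2 scale (edgeR adjusted p = 0.00298), and the GTPase Rhoh rose (1.75, adjusted p = 0.0342). In regression against progression 6 of 27 adhesion genes and 5 of 42 signalling genes were higher, against 6.45% of all genes. Cd69, which holds T cells in tissue, was higher (edgeR log2 fold change 4.89 ± 1.03, adjusted p = 0.0199), as was Cd74, the receptor of Mif (edgeR log2 fold change 3.07 ± 0.72, adjusted p = 0.0256). Mif, a cytokine that also engages Cxcr4 and Cxcr2, was lower in regression, at 43.1, 53.9 and 80.5 CPM against 205, 272 and 190.1 in progression (edgeR log2 fold change -1.91 ± 0.40, adjusted p = 0.0199) and 230.1, 545 and 258 under water (edgeR adjusted p = 0.011). In regression against water 1 of 27 tested adhesion and egress genes was higher, against 3.13% of all genes. Lower were 2 of 42 signalling genes and 1 of 20 other chemoattractant genes, against 4.57% of all genes. The gene called higher was Plxnd1, a semaphorin receptor (edgeR log2 fold change 2.52 ± 0.43, adjusted p = 0.0124). Mif, Ncf1 and Gng2 were lower (edgeR adjusted p = 0.011, 0.0219 and 0.0351).

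C57 tumours were compared for ATO against PBS, with 2 libraries in each group. Ccl8 and Ccl12 fell and Ccl25 rose. Only 32 of 61 members passed the filter (20 ligands, 10 receptors, 2 atypical receptors), 8 had 0 counts in all 4 libraries, and Xcl1 and Ccr6 were among those. Of the 32, 1 was higher against 7.37% of all genes and 2 were lower against 6.57%, so the shares were near or below the background. The median log2 fold change was -0.11 over ligands and 0.02 over receptors, beside 0.04 over all genes.

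Ccl8, a monocyte attractant of tissue macrophages, had 34.7 and 53.9 CPM under PBS and 1.84 and 0.855 CPM under ATO. Both ATO libraries were far below both PBS libraries (edgeR log2 fold change -5.04 ± 0.42, adjusted p = 0.000579), and the call was kept in 4 of 4 fits that left out 1 library, in which the lone sample left is assumed to vary like the other group. Ccl12, its neighbour in that cluster, had 4.80 and 5.57 CPM under PBS and 1.55 and 0.526 CPM under ATO (edgeR log2 fold change -2.33 ± 0.57, adjusted p = 0.0242), a call lost without either PBS library (adjusted p up to 0.0574). Ccl2 and Ccl7, other ligands of Ccr2 from the same cluster, were not called (edgeR adjusted p = 0.314 and 0.997). In the W/W libraries Ccl8 ranged from 3.95 to 197 CPM and was called in no comparison.

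Macrophage markers moved the same way in these tumours, from 692 to 917 CPM under PBS to 353 to 408 CPM under ATO. C1qa, C1qb, C1qc and Lyz2 were lower among 10 tested, Csf1r and Adgre1 were not called, and Marco was at 0 under PBS and Cd163 under ATO. The share of mitochondrial counts, 0.521% and 1.02% under PBS, was 5.98% and 4.03% under ATO. The part of macrophages or of that share in the fall of Ccl8 was not tested. Fibroblast markers rose in 5 of 10 cases, to 827 to 1931 CPM from 428 to 710.4.

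Ccl25 had 14.1 and 16 CPM under PBS and 39.1 and 25.4 CPM under ATO without overlap (edgeR log2 fold change 1.10 ± 0.29, adjusted p = 0.0323). Its call was lost without PBS replicate 1, PBS replicate 2 or ATO replicate 1 (edgeR adjusted p up to 0.153). Thymic epithelial markers were not higher with ATO, at 209 to 217 and 147 to 177 CPM, with Psmb11, Aire and Tbata at 0 under PBS and Foxn1 and Tbata at 0 under ATO. Cxcl16 was nearly the same within groups, at 23.3 and 22.3 CPM under PBS and 12.5 and 12.4 CPM under ATO, and just missed the threshold (edgeR log2 fold change -0.87 ± 0.29, adjusted p = 0.064). Cxcl12 was at 16.7 and 4.36 CPM under PBS and 16.4 and 29.1 CPM under ATO (edgeR adjusted p = 0.163), low in PBS replicate 2. Nearly all counts of Cxcl1 and Cxcl2 came from ATO replicate 2, with 1 and 20 counts of Cxcl1 and 3 and 73 of Cxcl2 in ATO replicates 1 and 2, and neither gene was tested. Summed neutrophil markers were 5.38 and 25.9 CPM in ATO replicates 1 and 2, and 11.6 and 3.36 CPM in PBS replicates 1 and 2. The part of neutrophils in these counts was not tested.

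Receptors showed 0 calls of 10 in edgeR, against 13.9% of all tested genes called. An unadjusted p under 0.05 in edgeR was found for 0 of the 10, against 4921 of all 15468 tested genes. DESeq2 also called 0, and no share over all genes is given here for it. With 10 receptors and 2 libraries per group, these counts do not show that receptors differed from other genes. Cxcr4 was at 332 and 325 CPM under PBS and 314 and 298 CPM under ATO (edgeR log2 fold change -0.10 ± 0.19, adjusted p = 0.749). Ccr4 followed at 10.3 and 14.6 CPM under PBS and 16.4 and 19.4 under ATO (edgeR adjusted p = 0.289). Ccr9 was at 11.7 and 17.5 CPM under PBS and 14.3 and 9.53 under ATO (edgeR adjusted p = 0.614). Ccr7, Ccr1, Ccr2, Cxcr3, Cxcr5 and Cx3cr1 stayed under 8 CPM. The count of 3 called members was 10 without ATO replicate 1, 1 without PBS replicate 2, and 2 or 3 without the others. Of the trafficking lists Plcb3 was higher (edgeR log2 fold change 1.26 ± 0.33, adjusted p = 0.0284). Cd74, Mif, Vcam1, Coro1a and Rgs10 were lower, Cd74 by 1.36 and Mif by 1.30 on the log2 scale (edgeR adjusted p = 0.0105 and 0.00868). These were 1 higher and 2 lower of 41 tested signalling genes, against 7.37% and 6.57% of all genes. Among adhesion and egress genes 1 of 24 was lower, and among other chemoattractants 2 of 15.

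**Figure D4:**
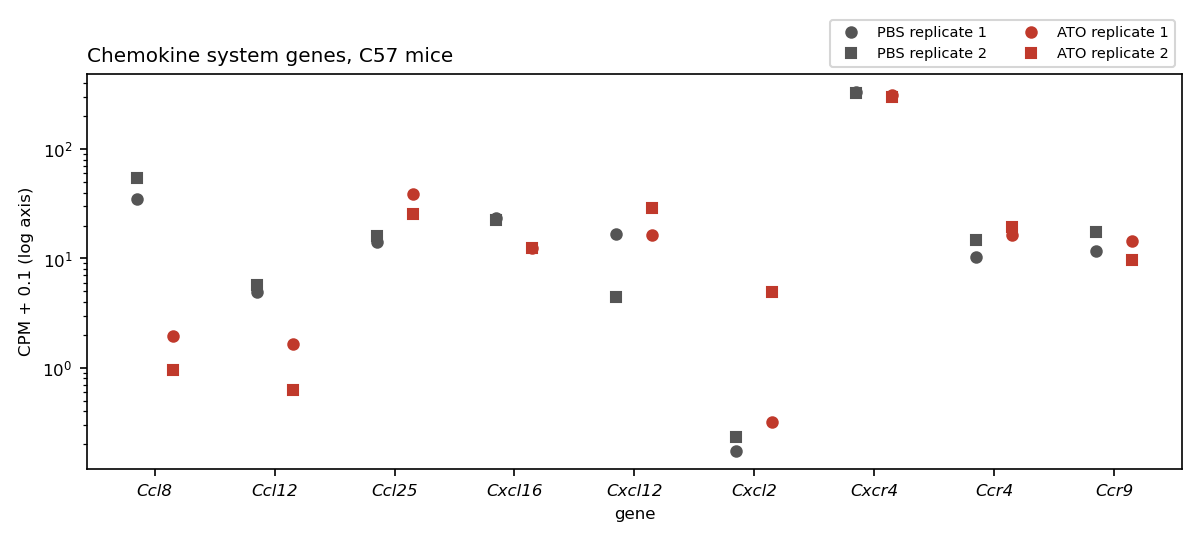
CPM plus 0.1 on a log axis for 9 members in the 2 PBS (grey) and 2 ATO (red) C57 libraries, with circles for replicate 1 and squares for replicate 2. Ccl8 and Ccl12 are lower in both ATO libraries, Ccl25 is higher, Cxcl2 is high in ATO replicate 2 alone, and Cxcr4 stays near 300 CPM (298 to 332).

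U937 cells gave 1 library per treatment, so no test was made, and ratios compare these libraries rather than the treatments. Of the 63 members 24 had 0 counts in both libraries and 17 had a mean of at least 1 CPM. Among these 17, 9 were more than 2-fold higher with ATO, against 15.3% of all measured genes, and 3 were more than 2-fold lower, against 8.53%. Past 2-fold means a log2 ratio of CPM plus 1 above 1 or below -1. Ratios below are given with exact 95% counting intervals, which cover counting error only.

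The receptor with the most counts again was CXCR4, which went from 188 to 66.8 CPM, an ATO to PBS ratio of 0.355 (0.331 to 0.380). CCR1, a receptor for CCL3 and CCL5 on monocytes, went from 10.6 to 32.5 CPM with a ratio of 3.05 (2.58 to 3.62), and CX3CR1 from 5.71 to 13.5 with 2.36 (1.86 to 3.02). CCR3 went from 0.280 to 2.01 CPM. CCR3 and CCR1 overlap each other on the genome, so both values are uncertain in that respect. CXCR2, the receptor of CXCL8, went from 20.8 to 26.1 CPM, a ratio of 1.25 (1.09 to 1.44), and CCR2 from 15.2 to 12 CPM, a ratio of 0.791 (0.655 to 0.953), both within 2-fold. The sum of all receptors per kilobase was 83.9 under PBS and 53.9 under ATO, of which CXCR4 held 77.3% and 42.7%.

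Ligands were higher in 6 of 8 measured cases. CCL18, a chemokine of alternatively activated macrophages, had 0 counts under PBS and 304 under ATO, at least 110.1-fold higher with a floor of 3 counts. CXCL16 went from 2.74 to 23.5 CPM, a ratio of 8.58 (6.36 to 11.8), CXCL8 from 3.97 to 10.5 CPM, a ratio of 2.63 (1.98 to 3.52), and CCL3 from 0.336 to 6.50 CPM, a ratio of 19.4 (8.61 to 54). CXCL2 had 4 counts under PBS and 31 under ATO, a ratio of 8.42 (2.98 to 32.8), and CXCL11 1 and 36, a ratio of 39.1 (6.58 to 1587). CCL5, the leading ligand under PBS with 83.3% of the ligand sum per kilobase, went from 48.1 to 18.6 CPM, a ratio of 0.387 (0.338 to 0.441). CXCL10 had 43 counts under PBS and 2 under ATO, a ratio of 0.0505 (0.00593 to 0.194), although its neighbour CXCL11 went the other way. Several of these ligands overlap genes on the other strand: CXCL16 with ZMYND15 and MED11, CXCL10 and CXCL11 with ART3, and CCL3 with CCL3-AS1. CCL5 overlaps an unnamed gene on the other strand, and CXCL11 an unnamed gene on its own strand. How far reads of those genes enter the ligand values was not tested.

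**Figure D5:**
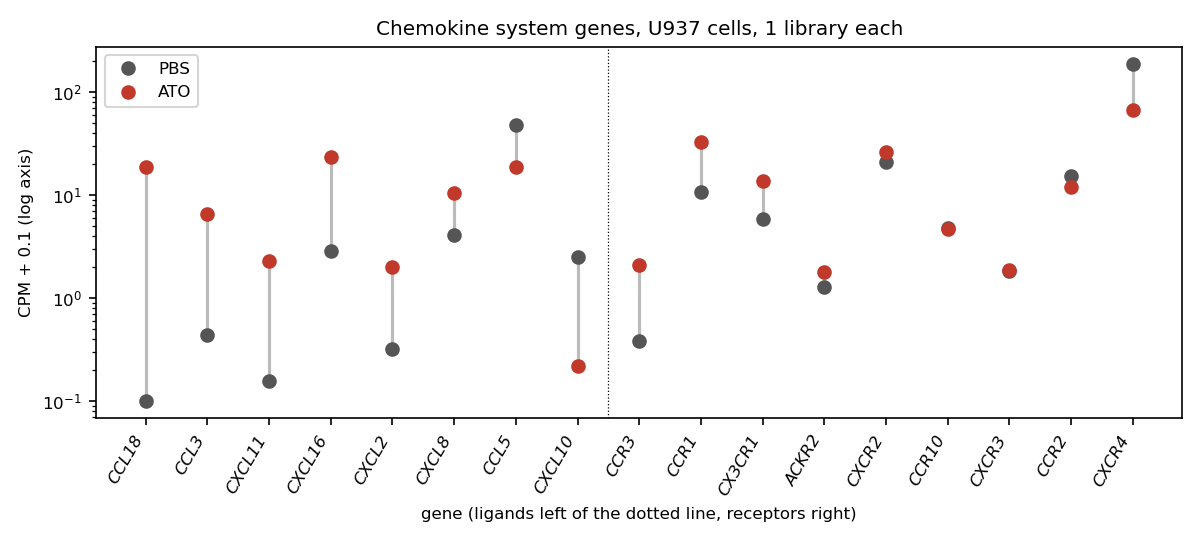
CPM plus 0.1 on a log axis for the 17 members with a mean of at least 1 CPM in U937 cells, with grey for PBS and red for ATO, 1 library each, ligands left of the dotted line. CCL18, CCL3 and CXCL16 lie higher with ATO, and CXCL10, CCL5 and CXCR4 lie lower.

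Other genes of the U937 cells moved beside them. IL1B, a cytokine that induces CXCL8 and CXCL2, had 7 counts under PBS and 76 under ATO. C5AR1 and FPR1, receptors for complement C5a and for bacterial peptides, went from 5.99 to 96.3 and 0.168 to 15.2 CPM, and RHOH from 1.85 to 13.7 CPM, while CD69 went from 30.4 to 3.04, ITGA4 from 449.6 to 73.2 and CYSLTR1 from 41.2 to 7.23 CPM. Of 14 myeloid markers 13 were measured, with ITGAM and CSF1R past 2-fold higher and LYZ, ANPEP, AZU1, FUT4, PRTN3 and ELANE past 2-fold lower, and their sum was 3963 and 1445 CPM. Of 7 T-cell markers 0 reached a mean of 1 CPM, 5 were at 0 counts under PBS, and 2 (CD3D, CD3G) under ATO. Their sum was 0.560 CPM under PBS and 2.61 CPM under ATO, with CD247 at 0 and 31 counts.

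Across the systems Ccl25 was called higher both in regressing W/W tissue against water and in C57 tumours under ATO, with log2 fold changes of 3.84 and 1.10. The C57 call depended on single libraries. In progressing W/W tissue, also from ATO-treated mice, Ccl25 overlapped the water range and was not called. In U937 cells CCL25 had 0 counts in both libraries. Cxcl16 differed in direction: it was lower in progression, -0.87 without a call in C57 tumours, and higher with ATO in U937 cells. These values come from tables normalized separately and were not compared by a test.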

How the data were processed

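Bulk RNA-seq of 9 W/W, 4 C57 and 2 U937 libraries was used as 3 gene tables. Per the submitters' processing notes, FastQC 0.10.1, cutadapt 1.9.1 and HISAT2 2.0.1 were used with builds GRCm38 and mm10. The counting tool and its use of strand are not given in the sources used here, and the build of the C57 and U937 tables was not used for coordinates. The deposited values are raw counts per gene, with FPKM values that the authors derived from counts and the exonic gene size. Only the counts were tested, and the FPKM values served to check whether they follow from the counts. The total implied by the FPKM values matched the summed counts closely in the C57 and U937 tables. In each W/W library it was larger, by 0.106% in water replicate 1 up to 2.33% in water replicate 2. The cause was not tested. The exonic gene size in the deposited tables was used for levels per kilobase.

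Each count table was fitted in edgeR (version 4.0.16, under R 4.3.3): filterByExpr, TMM scaling, the quasi-likelihood test, and Benjamini-Hochberg adjustment over all tested genes with a threshold of 0.05. The 9 W/W libraries were fitted as 3 groups, the C57 libraries alone. Fold changes carry the standard error of the fit. U937 values are CPM with a pseudocount of 1 for log2 ratios, a minimum mean of 1 CPM and a 2-fold limit. With at most 3 replicates, precision rests on few samples, and counting intervals (95%, exact) and the floor of 3 counts cover counting error only. The script was tested on simulated counts. Alternatives were DESeq2 1.42.0, RLE size factors, no filter, a replicate block, fits of the compared groups only, and each library left out; a fit without the 2 libraries of low TMM factor and a crossed C57 pairing were chosen after the data were seen. The labels do not say whether replicate numbers pair the samples, and the main fits used no pairing.

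Members, marker lists and pathway lists were chosen with earlier results of these data known. Named were fixed ligand and receptor sets, called members (at most 12 per direction), the 3 largest called pathway genes per direction, and in U937 members past 2-fold with 10 CPM or more. Other called or low members (CCL3, CXCL2, CXCL11, CXCL10, CCR3) and marker genes were named after their values were seen. A few genes that these rules select are not reported here, and counts include them. Gene positions come from the W/W table, exon overlaps and copies from a GRCm38 gene annotation, and promoters from RefSeq.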

Additional observations from a re-analysis of the deposited data

Results flagged for a closer look

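For 18 of 54 tested members the effect in regressing tissue differed from that in progressing tissue, against 12.6% of all tested genes (edgeR quasi-likelihood test, adjusted p under 0.05). Both effects were taken against the same 3 water libraries, which makes the difference the direct contrast of both ATO outcomes. The 18 are thus the same calls as given above for that contrast. Ccl25, Cxcl12 and Xcr1 kept their call whichever library was left out, while Ccr3, Ccr6, Cxcr5 and Cxcr6 kept it in no such fit. The effect in regression was higher on the log2 scale by 4.27 for Ccl25, 3.15 for Cxcl12, 1.83 for Ccl27a, 3.89 for Ccl22, 2.48 for Ccl5, 3.50 for Cxcl9, 2.23 for Cx3cl1 and 4.32 for Xcl1. Among receptors it was higher by 4.31 for Xcr1, 2.39 for Ccr7, 3.88 for Cxcr5, 5.06 for Cxcr6, 3.10 for Cx3cr1 and 3.62 for Ccr3, and by 3.82 for the atypical receptor Ackr4. The fitted 8.67 for Ccr6 rests on 0 counts in the 3 progressing libraries and depends on the prior count. Cxcl1 and Cxcl2 went the other way, at -3.60 and -4.53.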

How the results depend on the processing

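The number of called members depended on the settings more than the direction of single members did, and no named member changed sign across a call. No share over all genes is given here for any setting other than the main fits, including the fits with 1 library left out. The counts of this section therefore do not show whether members moved more than other genes did. Against the 6 members called in regression against water, DESeq2 called 14 and a fit with no filter on low counts 20. In regression against progression the fit with no filter called 32 in place of 18. In C57 tumours DESeq2 called 5 in place of 3 and the fit with no filter 7. RLE size factors left the counts at 6, 19, 18 and 3. With 1 library left out, the counts ranged from 1 to 8 in regression against water, from 10 to 22 in progression against water, from 3 to 13 in regression against progression and from 1 to 10 in C57 tumours. In U937 cells 10 to 14 members were past 2-fold in place of 12. Over the values of single members and the smaller counts, 1397 kept their side, 145 no longer passed, 59 passed newly and 61 counts moved by over 1.5 times; the cause was not tested. With the replicate block the counts were 4, 16, 13 and 2. Same-numbered W/W samples had correlations of deviations from -0.12 to 0.15, and not every sample correlated best with its own number. Between water and ATO libraries, same-numbered samples ran from 0.01 to 0.15 and others from -0.17 to 0.11. With so few libraries per group these correlations cannot decide whether a number marks a pair. The C57 numbers correlated at -0.12, and a crossed block called 6. With 2 libraries per group the C57 deviations mirror each other, so crossed numbers gave 0.12 by construction. DESeq2 gave no adjusted p for Ccr6, Ccr9 and Cxcl13 in W/W tissue. Without the 2 libraries of low TMM factor, chosen after the data were seen, the W/W counts were 9, 22 and 22. At this depth 54 of 61 W/W and 32 of 61 C57 members had enough counts to be tested.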
